A study of Mus musculus with 8 samples.

Results

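Genes that make, cleave and oxidise sulfide and related sulfur compounds were examined in whole colon of mice with acute graft-versus-host disease, a condition in which donor T cells attack the tissues of the recipient. The 10 genes were Selenbp1, Selenbp2, Kyat1, Sqor, Ethe1, Tst, Mpst, Suox, Cbs and Cth, listed by name, and all 10 were found among the 19505 genes of the array, each through a single probe set. The list was drawn up with results of these arrays known. Selenbp1, Selenbp2 and Kyat1 were already known to be higher in the hBD-2 mice, and were selected on that difference in log2 expression between the groups, so these differences are given below as a description with no test, and the other 7 are read from a test over all genes.

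The mice given hBD-2 received 1.2 mg/kg of human beta-defensin 2, an antimicrobial peptide of epithelial cells, by mouth from day 0 to day 7, and the comparison mice received PBS by mouth over the same days. All 8 recipients were wild-type BALB/c mice that had been lethally irradiated and grafted on day 0 with bone marrow and T cells of C57BL/6 donors, so every colon came from a diseased mouse. The colon was taken on day 7, with 4 mice per group and 1 array per mouse. Age and sex are not given in the sources used here.

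Sulfide reaches the colon wall from gut bacteria and is also made inside cells from cysteine and homocysteine. It poisons mitochondrial respiration, and colonocytes are known for oxidising it: SQOR takes electrons from sulfide to coenzyme Q and forms a persulfide, ETHE1 oxidises the persulfide to sulfite, TST moves sulfur between sulfite, thiosulfate and other acceptors, and SUOX oxidises sulfite to sulfate. Methanethiol, another bacterial gas, is oxidised by SELENBP1, with sulfide among the products.

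Selenbp1 and Selenbp2 are close copies of each other. They lie 229 kb apart on chromosome 3 of the mouse assembly GRCm38.p6, with Selenbp2 at chr3:94693573-94704406 and Selenbp1 at chr3:94933083-94944758. The 250 bases before each annotated start, taken from RefSeq, are shown because both genes were higher in all hBD-2 arrays. Capitals mark TTTAT on either strand (ATAAA on the strand shown), the core of sites bound by CDX factors of the intestinal epithelium. The first sequence is chr3:94932833-94933082 and the second chr3:94693323-94693572, both on the plus strand, 5′ to 3′.
Selenbp1: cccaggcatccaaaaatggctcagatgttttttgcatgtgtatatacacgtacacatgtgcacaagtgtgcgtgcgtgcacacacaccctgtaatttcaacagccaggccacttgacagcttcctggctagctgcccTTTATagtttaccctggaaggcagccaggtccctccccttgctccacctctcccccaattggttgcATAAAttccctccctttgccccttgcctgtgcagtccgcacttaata
Selenbp2: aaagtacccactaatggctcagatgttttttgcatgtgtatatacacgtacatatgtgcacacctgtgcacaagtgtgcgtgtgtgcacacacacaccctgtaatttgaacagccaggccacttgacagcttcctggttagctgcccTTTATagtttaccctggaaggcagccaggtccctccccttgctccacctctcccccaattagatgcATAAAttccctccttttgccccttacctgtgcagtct
In a global alignment 238 bases were paired and 224 of them, or 94.1%, were identical, with 14 substitutions. Gaps inside the alignment took up 12 further bases. At the ends, where gaps carried no penalty, 12 more were left unpaired. Each stretch held 2 matches to TTTAT, beginning at -113 and -47 from the start in Selenbp1 and at -103 and -37 in Selenbp2, and none to CAAAGTCCA, searched for HNF4, or to TGACNNNGC, the core of the antioxidant response element. TTTAT on either strand was present in 37.3% of 32851 such windows of the RefSeq table, CAAAGTCCA in 0.384% and TGACNNNGC in 10.2%. Among the 8 listed genes with a promoter entry, TTTAT was also found before 2 of the 3 starts of Mpst and TGACNNNGC before Kyat1 and 1 start of Mpst. Cth and Tst had no entry. Whether the probe set of either copy also captures RNA of the other was not tested.

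Mice 1 and 3 of the hBD-2 group set themselves apart in the whole expression profile, at 25.2 and 25.4 on the first principal component, against -14.9 to -2.45 for the remaining arrays. They also had the highest mean of 10 markers of posterior colon position, 7.23 and 7.03 log2 units, while the other hBD-2 mice were at 6.01 each and the PBS mice at 5.91 to 6.16. Of the 10 markers, 5 (Hoxb13, Hoxd13, Scnn1b, Scnn1g and Insl5) were higher in these mice than in all other 6, 1 (Hoxa11) was lower than in all of them, and 4 did neither. The mean of 12 pan-epithelial markers overlapped between the groups, at 10.97 to 11.11 in hBD-2 mice and 11.00 to 11.09 in PBS mice, and that of 13 mature colonocyte markers was 11.20 to 11.31 and 11.04 to 11.27. The mean of 9 fibroblast and matrix markers was 9.12 to 9.55 in hBD-2 mice and 9.68 to 9.82 in PBS mice, and that of 9 macrophage markers 7.33 to 7.54 and 7.77 to 8.09, without overlap in either list mean. Of these markers 6 of 9 and 5 of 9 were singly lower in all hBD-2 arrays, against 3.60% of all genes. The marker lists were chosen with earlier results of these data known. The list means of 9 goblet cell markers (10.96 to 11.54 in hBD-2 mice and 10.96 to 11.26 in PBS mice), 8 smooth muscle markers (10.23 to 10.78 and 10.59 to 10.85), 8 liver markers (6.44 to 6.65 and 6.43 to 6.62) and 5 adipocyte markers (5.62 to 6.19 and 5.84 to 6.05) overlapped. The part of these tissue differences in the results below was not tested. In RNA of whole tissue, fewer cells of a type and less RNA per cell cannot be told apart. Values on this log2 scale have no true zero, and levels of different probe sets are not compared. Differences below are hBD-2 minus PBS in log2 units.

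Selenbp1, Selenbp2 and Kyat1 had the largest differences of the 10 genes. Selenbp1 encodes the methanethiol oxidase. It stood at 9.87, 9.16, 10.02 and 9.03 log2 units in hBD-2 mice 1 to 4, against 8.42, 8.95, 8.99 and 7.85 in PBS mice 1 to 4. The groups did not overlap, but the lowest hBD-2 array lay only 0.042 above the highest PBS array, and PBS 4 was the lowest of all. The mean was 9.52 ± 0.50 in hBD-2 mice and 8.55 ± 0.54 in PBS mice (SD, n = 4 each), a difference of 0.97 (SE 0.29) or 1.96-fold. Without hBD-2 mice 1 and 3 the difference was 0.54 (SE 0.29).

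Selenbp2 encodes a mouse protein first known from liver for binding acetaminophen. It stood at 6.41, 5.93, 6.71 and 6.27 in hBD-2 mice, against 5.61, 5.77, 5.66 and 5.70 in PBS mice. All 4 hBD-2 arrays were higher, by at least 0.17, and the PBS arrays lay within 0.16 of each other. The difference was 0.65 (SE 0.14), and 0.42 (SE 0.11) without hBD-2 mice 1 and 3. The PBS values of Selenbp1 spanned 1.14. Selenbp2 lay at the 37.2 percentile of mean level among all genes and Selenbp1 at the 81.6 percentile. Whether the level of the probe set bears on its spread was not tested, so nothing is read from the unlike spreads.

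Kyat1 encodes kynurenine aminotransferase 1, which also cleaves cysteine conjugates as a beta-lyase. It stood at 8.66, 7.99, 8.88 and 7.74 in hBD-2 mice, against 7.66, 7.53, 7.66 and 7.54 in PBS mice. The hBD-2 values separated into a high pair, hBD-2 1 and hBD-2 3, and a pair nearer to PBS, while the PBS values spanned 0.13. The difference was 0.72 (SE 0.22), or 1.65-fold, and 0.27 (SE 0.10) without the high pair. The lowest hBD-2 array lay 0.086 above the highest PBS array. In Selenbp1, Selenbp2 and Kyat1 alike, hBD-2 3 was the highest array and hBD-2 1 the next, the arrays in which 5 of the 10 posterior colon markers were also highest. The mean of the goblet cell markers was highest in these arrays too, at 11.54 in hBD-2 1 and 11.36 in hBD-2 3. Among PBS mice 1 to 4 the mean of the posterior colon markers was 5.92, 5.91, 6.16 and 6.07. It was thus highest in PBS 3 and next in PBS 4, whereas Selenbp1 was highest of that group in PBS 3 and lowest in PBS 4. Whether colon position bears on these genes was not tested.

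**Figure D1:**
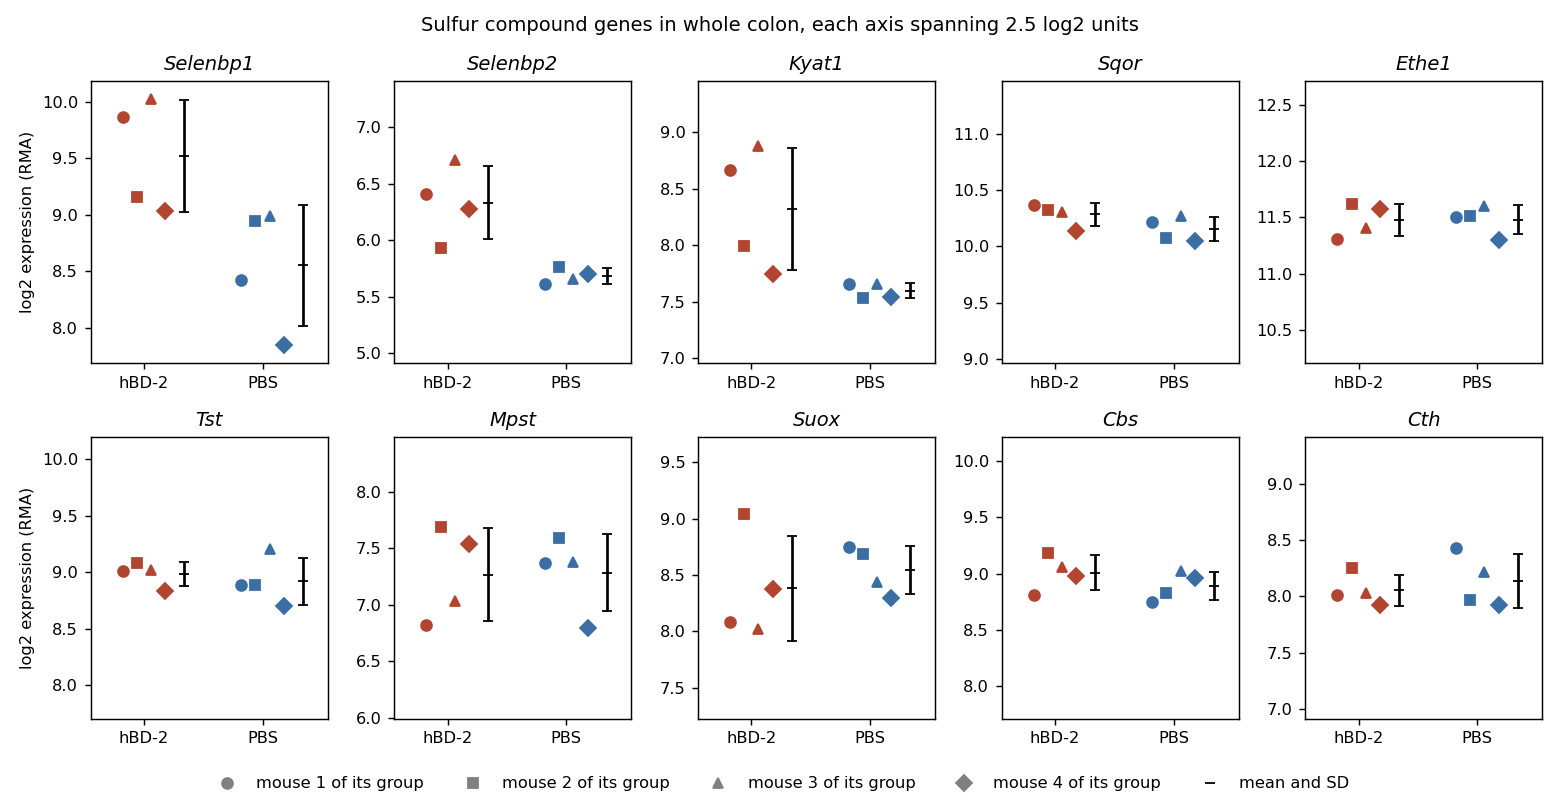
Log2 expression (RMA) of the 10 genes on the vertical axes, each spanning the same range, with 1 point per mouse, hBD-2 left and PBS right, symbols for the mouse number within its group (numbers do not pair mice) and bars for mean and SD (n = 4). The hBD-2 points lie above all PBS points in Selenbp1, Selenbp2 and Kyat1, and the groups overlap in the other 7.

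In Selenbp1, Selenbp2 and Kyat1 the hBD-2 mice did not overlap the PBS mice and were higher, a pattern found in 547 of all 19505 genes (2.80%). Since these 3 genes were listed with it known, nothing is read from that count. None of the other 7 genes was lower without overlap, against 3.60% of all genes. None of these 7 passed an adjusted p of 0.05 in limma, a linear model with moderated variances and Benjamini-Hochberg adjustment, where 8 of all genes (0.0410%) passed. At an unadjusted p under 0.05 there were 0 of the 7, against 11.8% of all genes. The median difference over the 7 genes was -0.0034, with 3 positive and 4 negative, against 0.012 over all genes, of which 53.5% were positive. These 7 are what remained once the genes known to be higher were set aside. They are not an unselected set, so nothing is read from their shares beside those of all genes.

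None of the enzymes that oxidise sulfide onward passed the test. Sqor, the entry enzyme, stood at 10.37, 10.33, 10.30 and 10.13 in hBD-2 mice, against 10.22, 10.07, 10.27 and 10.05 in PBS mice. The groups overlapped, through hBD-2 4. The difference was 0.13 (95% interval -0.055 to 0.32, adjusted p = 0.568 by limma). Ethe1, the persulfide dioxygenase, ranged from 11.31 to 11.61 in hBD-2 mice and from 11.30 to 11.60 in PBS mice. Its difference was -0.0034 (95% interval -0.22 to 0.21, adjusted p = 0.994 by limma). With 4 arrays per group the data do not tell differences within this interval apart. Larger differences can also fail the adjustment over all genes, as that of Slc7a11 did at -0.59.

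Tst, the sulfurtransferase rhodanese, ranged from 8.83 to 9.08 in hBD-2 mice and from 8.70 to 9.20 in PBS mice, with a difference of 0.066 (95% interval -0.18 to 0.31, adjusted p = 0.842 by limma). Its PBS values were the more spread, with PBS 3 highest and PBS 4 lowest of the 8 arrays. Suox, the sulfite oxidase that ends the route, stood at 8.09, 9.04, 8.02 and 8.38 in hBD-2 mice, against 8.75, 8.69, 8.44 and 8.30 in PBS mice. The hBD-2 values spanned 1.02, from below all PBS arrays in hBD-2 1 and hBD-2 3 to above all of them in hBD-2 2. The difference was -0.16 (95% interval -0.62 to 0.30, adjusted p = 0.788 by limma) and turned to 0.17 (SE 0.19) without hBD-2 mice 1 and 3.

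The enzymes that release sulfide inside cells did not pass the test either. Mpst, which takes sulfur from 3-mercaptopyruvate and neighbours Tst on chromosome 15 at a distance of 846 bases, stood at 6.82, 7.69, 7.03 and 7.53 in hBD-2 mice, against 7.37, 7.60, 7.38 and 6.80 in PBS mice. Low values were found in both groups, in hBD-2 1, hBD-2 3 and PBS 4. The difference was -0.016 (95% interval -0.49 to 0.46, adjusted p = 0.983 by limma), and 0.33 (SE 0.19) without hBD-2 mice 1 and 3. Tst, its neighbour, stood at 9.01 and 9.02 in hBD-2 1 and hBD-2 3, within the range of the other arrays.

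Cbs and Cth encode the transsulfuration enzymes, which turn homocysteine into cysteine and can form sulfide from either. Cbs ranged from 8.81 to 9.18 in hBD-2 mice and from 8.75 to 9.02 in PBS mice, a difference of 0.12 (95% interval -0.10 to 0.33, adjusted p = 0.664 by limma). Cth ranged from 7.92 to 8.25 in hBD-2 mice and from 7.93 to 8.43 in PBS mice, a difference of -0.083 (95% interval -0.35 to 0.19, adjusted p = 0.822 by limma). The groups overlapped in both genes.

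**Figure D2:**
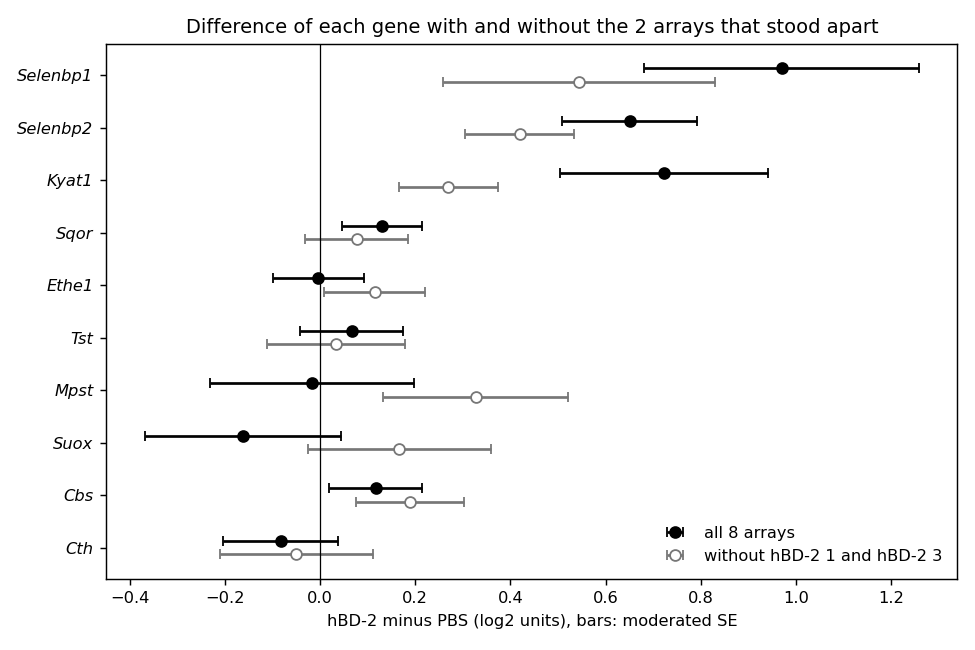
Difference hBD-2 minus PBS in log2 units for each gene, with moderated SE as bars, from all 8 arrays (filled) and without hBD-2 mice 1 and 3 (open). Without these arrays Kyat1 is at 0.27 in place of 0.72, and Mpst at 0.33 in place of -0.016.

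Within groups the genes differed in how much they varied. Selenbp1, with a within-group SD of 0.52, varied more than 99.2% of all genes, and Kyat1, Mpst and Suox lay at the 98.2, 98.1 and 97.7 percentiles of that SD. Sqor and Ethe1 were steady, with SDs of 0.11 and 0.14 at the 26.9 and 45.5 percentiles. In hBD-2 mice the genes ran in opposite directions: hBD-2 1 and hBD-2 3 were the highest arrays of the group for Selenbp1, Selenbp2 and Kyat1 and the lowest for Mpst, Suox and Ethe1. With these arrays left out, 6 of the 7 genes not selected on the difference were positive, all but Cth, with a median of 0.11, against 55.4% positive and a median of 0.020 over all genes. Of the 82 partner genes described below, 69.5% were positive in that setting, with a median of 0.051. Leaving out the lowest hBD-2 arrays of Mpst, Suox and Ethe1 raises their differences by construction. None of the 7 passed in that setting.

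**Figure D3:**
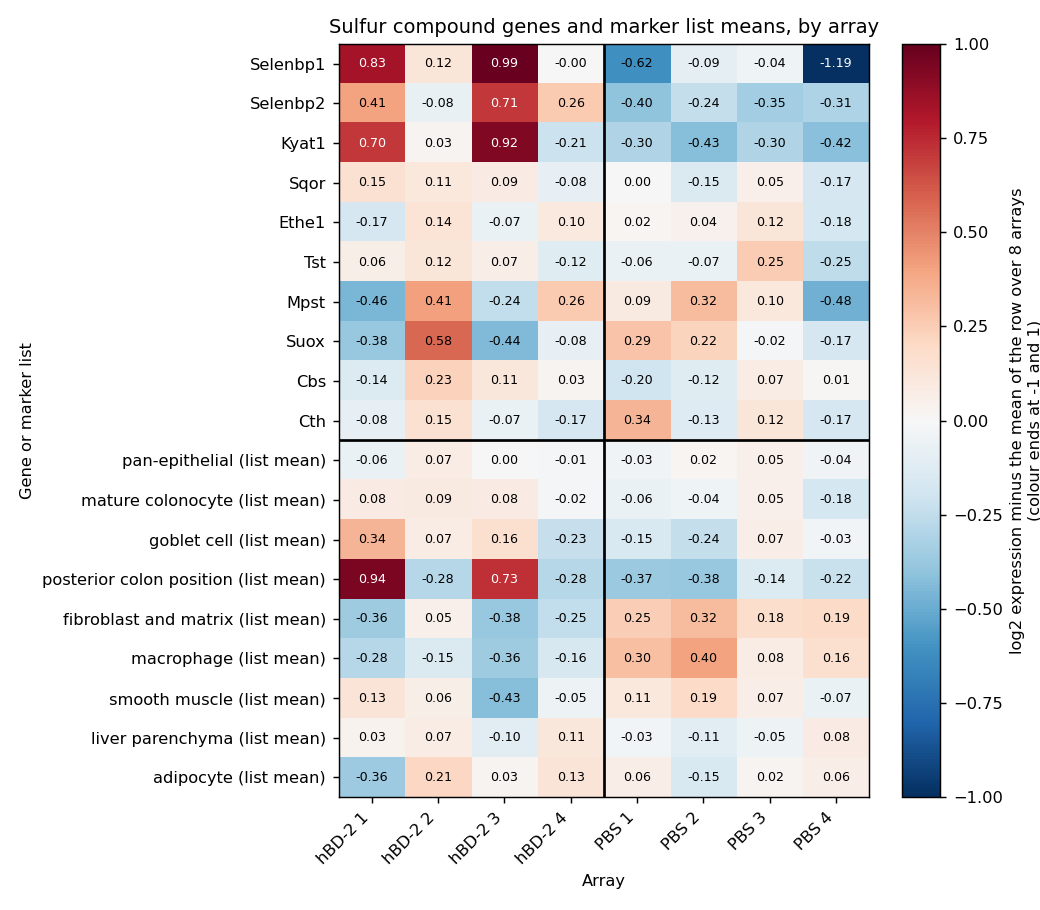
Log2 expression of each gene (upper rows) and mean of each marker list (lower rows) in each array, minus the mean of the row over the 8 arrays, with hBD-2 arrays left and PBS arrays right of the line. Red in hBD-2 1 and hBD-2 3 is shared by Selenbp1, Selenbp2, Kyat1 and the mean of the posterior colon markers, while Mpst and Suox are blue there. The mean of the goblet cell markers is also highest in these arrays, by less.

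The genes closest to Selenbp1 in their pattern were sought on values with the group means removed, so that the difference between groups was not used. Over the 8 arrays the smallest root mean square differences from Selenbp1 were those of Nt5e (0.17), which encodes the ecto-5′-nucleotidase CD73, Dennd5b (0.18), Lrrc19 (0.19), Rasgef1b (0.21) and Ciita (0.21), the transactivator of MHC class II genes, against a median of 0.47 for all genes. Nt5e stood at 7.57, 7.11, 7.84 and 6.82 in hBD-2 mice, against 6.90, 6.93, 7.35 and 6.42 in PBS mice. Like Selenbp1 it was highest in hBD-2 3 and lowest in PBS 4, a likeness that the way it was chosen favours. Kyat1 came 242nd of 19504 genes, Tst 1017th and Selenbp2 1111th, whereas Mpst and Suox were among the farthest, at ranks 17514 and 18924. The measure is smallest for genes that move with Selenbp1 by a like amount. It is largest for genes that vary much in another direction, such as Mpst and Suox.

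Around the 10 genes, 7 lists of partner genes held 90 genes, of which 82 were measured. None passed an adjusted p of 0.05 by limma, and at an unadjusted p under 0.05 there were 8 higher and 2 lower, together 12.2% of the 82, near the 11.8% of all genes. The median difference over the 82 genes was 0.038, against 0.012 over all genes. Among 14 measured enzymes that share substrates with sulfide metabolism, 10 differences were positive and 3 had an unadjusted p under 0.05, where 53.5% and 11.8% of all genes did. Got1, the cytosolic aspartate aminotransferase that can also turn cysteine into 3-mercaptopyruvate, the substrate of MPST, stood at 10.60, 10.47, 10.50 and 10.43 in hBD-2 mice, against 10.22, 10.32, 10.33 and 10.13 in PBS mice. The groups did not overlap, with a difference of 0.25 (SE 0.076, adjusted p = 0.250 by limma), and of 0.20 without hBD-2 mice 1 and 3. Mettl7a3 differed by 0.29 (SE 0.11), with an adjusted p of 0.346 in limma, and by 0.13 without hBD-2 mice 1 and 3. Its level was low, with means of 4.78 in hBD-2 mice and 4.49 in PBS mice.

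The transporters of sulfate, thiosulfate and taurine held 9 measured genes, 6 of them positive. Slc26a3, the chloride and bicarbonate exchanger of colonocytes, and Slc26a2, a sulfate transporter, were at 0.33 (SE 0.11) and 0.33 (SE 0.12), without passing (adjusted p = 0.266 and 0.343 by limma), and at 0.18 and 0.15 without hBD-2 mice 1 and 3. Slc13a1, a sodium-coupled sulfate transporter named after its values were seen, stood at 6.34, 9.02, 6.43 and 8.71 in hBD-2 mice, against 8.93, 9.24, 8.03 and 7.94 in PBS mice. It was far lower in hBD-2 1 and hBD-2 3 than in any other array. Its difference of -0.91 (SE 0.61) stood at 0.33 without them. Mettl7b, a thiol methyltransferase also named after its values were seen, had 6.19 and 6.55 in those arrays, against 7.70 to 8.41 in the other 6.

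Among 16 genes of cysteine uptake and glutathione synthesis, 7 differences were positive and 9 negative. Slc7a9, a subunit of the cystine transporter, stood at 7.18, 6.98, 6.84 and 6.68 in hBD-2 mice, against 6.62, 6.66, 6.51 and 6.31 in PBS mice. It did not overlap and had a difference of 0.40 (SE 0.12, adjusted p = 0.239 by limma). Slc7a11, the cystine and glutamate exchanger, differed by -0.59 (SE 0.20), with an adjusted p of 0.291 in limma and overlapping groups, and at -0.31 without hBD-2 mice 1 and 3.

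No gene of the remaining lists passed. The coenzyme Q list, which serves SQOR, had a median of 0.026 over 10 genes, with Coq9 at 0.19 (SE 0.073) and Coq8b at -0.12 (SE 0.10). The molybdenum list, whose cofactor SUOX needs, had a median of 0.031 over 10 genes, with Mtarc1 at 0.21 (SE 0.092) and Mtarc2 at 0.18 (SE 0.094). Without hBD-2 mice 1 and 3 Coq9 was at 0.19, Coq8b at -0.12, Mtarc1 at 0.16 and Mtarc2 at 0.12. The methionine cycle had a median of -0.011 over 13 genes, with Gnmt, the glycine methyltransferase, at 0.22 (SE 0.10) and Mtr, the methionine synthase, at -0.21 (SE 0.11). In the setting without hBD-2 mice 1 and 3 Gnmt was at 0.26 and Mtr at -0.15. The list of cysteine oxidation, taurine and sulfate conjugation had a median of 0.073 over 10 genes. Cdo1, the cysteine dioxygenase, was at 0.32 (SE 0.17) and at 0.020 without hBD-2 mice 1 and 3. Gadl1 was at 0.14 (SE 0.078), and also at 0.14 without hBD-2 mice 1 and 3. The adjusted p of these 8 genes ran from 0.351 to 0.692 in limma. Gnmt, Mtarc1 and Gadl1 lay low on the scale of these arrays, whose medians were 6.77 to 6.82. Their means in hBD-2 and PBS mice were 4.97 and 4.75 for Gnmt, 5.04 and 4.83 for Mtarc1, and 5.49 and 5.35 for Gadl1.

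**Figure D4:**
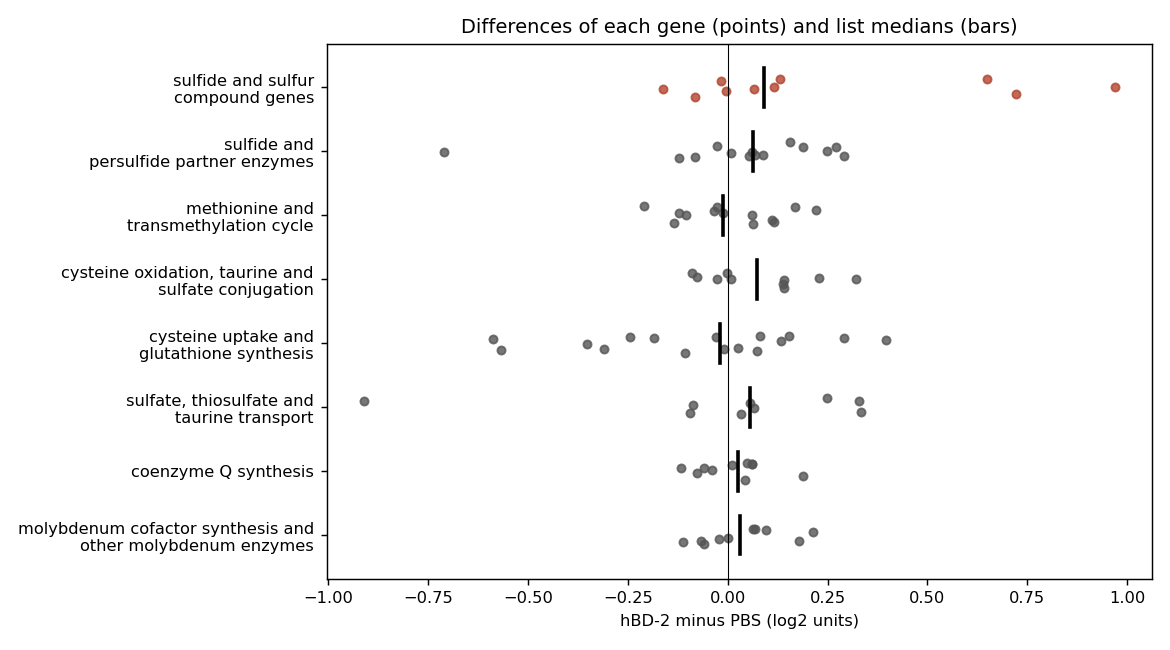
Difference hBD-2 minus PBS in log2 units (horizontal axis) for each gene of the 10 (top row) and of the 7 partner lists, 1 point per gene, with the list median as a bar. The medians of the partner lists lie between -0.019 and 0.073, and Selenbp1, Kyat1 and Selenbp2 are the points farthest to the right.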

How the data were processed

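Total RNA of whole colon from 8 mice was labelled with biotin after amplification and measured on Affymetrix arrays, per the labels' protocols. The deposited values are log2 expression, made by the authors with the R package oligo and RMA per the submitters' processing notes, which give no version. RMA makes the array distributions alike, so an overall shift would not show. Of 22203 probe sets, 19572 had 1 gene symbol in the platform annotation, none had several and 2631 were unnamed here. Per gene the probe set with the highest mean was kept, leaving 19505 genes. Array medians ran from 6.77 to 6.82, no arrays were identical, and the number of arrays limits precision. Groups and numbers came from sample titles.

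Differences, hBD-2 minus PBS, were fitted with limma 3.58.1 in R 4.3.3, two-sided, with Benjamini-Hochberg adjustment over all genes at 0.05, and tested on simulated data. Alternatives were other moderation, filters, scaling, weights, a block and left-out arrays. The 10 genes and all lists were chosen with earlier results of these data known. All 10 genes were described, with the 2 genes of lowest p per partner list, marker lists as means, and the 5 genes nearest Selenbp1. Promoters came from RefSeq (GRCm38.p6) and were aligned with biopython 1.88.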

Additional observations from a re-analysis of the deposited data

How the results depend on the processing

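None of the 7 tested genes passed an adjusted p of 0.05 in limma under any alternative run, and at an unadjusted p under 0.05 there were 0 in each except without hBD-2 2, with 1. The count of genes that were higher in hBD-2 mice without overlap stayed at 3, except for 2 of the 9 genes left when the lowest 50% of probe sets was removed, which takes out Selenbp2, and 4 without hBD-2 4, when Sqor joined. Leaving out single arrays gave 3 to 4. Over all genes the count past the threshold depended on the setting, with 8 as reported. It was 91 with an intensity trend and robust prior, 68 with array weights, 46 and 16 without the lowest 50% and 25% of probe sets, 4 with quantile normalization repeated and 3 with arrays centred on pan-epithelial markers. It was 0 without hBD-2 mice 1 and 3 together (2503 at an unadjusted p under 0.05). With single arrays left out it ran from 0, for any PBS array, hBD-2 1 or hBD-2 3 (1678 to 2771 at an unadjusted p under 0.05), to 11 for hBD-2 2. With the replicate number as a block limma passed 0 genes (2566 at an unadjusted p under 0.05). Deviations of same-numbered arrays correlated at -0.15 to 0.24 and 1 of the 4 hBD-2 arrays was closest to its own number, so the numbers were not taken to pair mice. The causes of these moves were not tested.

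The differences of Selenbp1, Selenbp2 and Kyat1 were positive in all alternatives, with 0.73 to 1.13, 0.52 to 0.78 and 0.53 to 0.91 when single arrays were left out. Several differences near 0 changed sign. With single arrays left out, Ethe1 ran from -0.063 to 0.053, Mpst from -0.18 to 0.13, Cth from -0.15 to 0.016 and Tst from -0.0074 to 0.16. Without hBD-2 mice 1 and 3, Kyat1 was at 0.27, Ethe1 was at 0.11, Mpst at 0.33 and Suox at 0.17. Ethe1 was at 0.013 and Mpst at 0.00046 with arrays centred on their median, and Mpst was at 0.019 with quantile normalization repeated.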
